A study of Mus musculus with 6 samples.

Results

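The 6 genes described here encode enzymes of extracellular traps: the peptidylarginine deiminases Padi4 and Padi2, and the azurophil granule enzymes myeloperoxidase (Mpo), neutrophil elastase (Elane), proteinase 3 (Prtn3) and cathepsin G (Ctsg). They were chosen by symbol, and all 6 were among the 32285 genes of the count tables. Single-cell RNA-seq of orthotopic pancreatic tumours was made in C57BL/6 mice injected with KPC cells, mouse pancreatic cancer cells from a p53-mutant model with Pdx1-driven Cre, carrying an empty vector (OE-Vector) or overexpressing MLKL, the executioner of necroptosis (OE-MLKL). A count matrix was used for 1 OE-Vector library and 3 OE-MLKL libraries; OE-Vector 2 and 3 were not analysed here. Every tumour thus shared the KPC background and the C57BL/6 host, and any group difference rests on a single OE-Vector library, with no label that says how many animals entered a library. The comparisons ask where these enzymes are transcribed in the tumour, and whether their transcripts differ between OE-MLKL and OE-Vector tumours.

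Extracellular traps are webs of decondensed chromatin that neutrophils, and also macrophages, release. PADI4 converts arginine to citrulline in histones and loosens chromatin, and PADI2 can do the same in other cells. MPO makes hypochlorous acid, and elastase, proteinase 3 and cathepsin G are serine proteases that cleave histones and matrix proteins. In textbook neutrophil development the granule enzymes are transcribed in bone marrow promyelocytes and then shut off, so that a mature neutrophil carries the proteins but little of their mRNA, while Padi4 is transcribed later. These counts measure mRNA only, neither protein nor citrullination nor traps.

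The 4 libraries held 150591289 to 169978362 unique molecular identifiers (UMIs, each 1 counted RNA molecule). After removal of cells scored as doublets, 63182 cells remained, and 48367 of them passed a marker gate as neutrophils (25334), macrophages (9473), monocytes (434) or cancer cells (13126). Between 73 and 134 cell barcodes were shared by any pair of libraries, at most 0.741% of the smaller one. Each gate had a marker that most cells carried: S100a8 was on in 90.6 to 97.2% of gated neutrophils, C1qa in 95.9 to 99.0% of macrophages, Ccr2 in 76.2 to 91.2% of monocytes and Krt18 in 88.7 to 96.3% of cancer cells. Other markers of the same lists were on in as few as 10.8%, 50.8%, 28.6% and 0.444% of these classes. The epithelial marker Epcam was on in at most 6.6% of cancer cells. Markers of other classes were also on. A monocyte marker was on in up to 88.6% of cancer cells and 66.8% of macrophages, a fibroblast marker in up to 70.2% of cancer cells, and a macrophage marker in up to 60.9% of monocytes. Mlkl itself stood at 16.2 CPM (the gene's UMIs scaled to all UMIs of the class in that library) in the OE-Vector 1 cancer cells against 8.90, 13.2 and 20.1 in those of OE-MLKL 1, 2 and 3. It was thus above OE-Vector 1 in OE-MLKL 3 alone, and the overexpression was not visible in OE-MLKL 1 and 2. Whether transcripts of the introduced MLKL are counted as Mlkl is not known here. All directions below are therefore between labels. The median depth was 728 to 1345 UMIs in a neutrophil but 12262 to 25959 in a cancer cell, so shares of cells with a UMI are given after each cell was thinned to 500 UMIs as well as without thinning, and levels are given in CPM of the summed class. All intervals are 95% intervals for counting error only.

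The genes lie in 2 linked pairs and 2 single loci of GRCm38. Padi4 (chr4:140745865-140774236, minus strand) and Padi2 (chr4:140906344-140952586, plus strand) belong to the PADI cluster and are 132107 bases apart. Prtn3 (chr10:79874476-79883174, plus strand) ends 3072 bases before Elane (chr10:79886247-79888215, plus strand) begins. Mpo is at chr11:87793581-87804413 (plus strand) and Ctsg at chr14:56099881-56102574 (minus strand), in a cluster of granule proteases. The first 159 bases of Prtn3 overlap the start of its neighbour Plppr3 on the opposite strand, 4921 bases of Padi2 overlap the antisense gene Gm13031 and 5361 bases of Mpo overlap the antisense gene Gm11505. The sources used here do not say whether counting used strand, and without it reads from the shared bases cannot be told apart. The paper names a 3′ reagent kit, and Prtn3 and Plppr3 share bases only at their starts. Whether reads of Plppr3 entered the Prtn3 counts was not tested.

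The promoters of the 4 granule enzymes are printed because these genes are transcribed together in promyelocytes, while Prtn3 alone was frequent here. The sequences are from RefSeq (GRCm38.p6), 5′ to 3′ on the gene's strand, taken from 250 bases before the start and stopped before the first annotated exon. The RefSeq starts of Prtn3, Elane, Mpo, Padi4 and Padi2 lie inside the gene spans given above, that of Prtn3 furthest. Distances below are counted from the RefSeq starts. Capitals mark AGGAAGT, a core bound by PU.1 and other Ets factors.
Prtn3 (chr10:79879417-79879613, plus strand): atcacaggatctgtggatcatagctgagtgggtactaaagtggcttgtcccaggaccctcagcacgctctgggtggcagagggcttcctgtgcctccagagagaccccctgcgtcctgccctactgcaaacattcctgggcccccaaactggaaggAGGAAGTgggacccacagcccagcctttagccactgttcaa
Elane (chr10:79886062-79886246, plus strand): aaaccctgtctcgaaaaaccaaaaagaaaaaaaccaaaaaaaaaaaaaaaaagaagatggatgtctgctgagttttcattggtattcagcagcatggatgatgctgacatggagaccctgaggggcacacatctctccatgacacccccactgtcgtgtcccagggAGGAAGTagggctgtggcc
Mpo (chr11:87793534-87793580, plus strand): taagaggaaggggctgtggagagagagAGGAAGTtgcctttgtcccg
Ctsg (chr14:56102575-56102824, minus strand): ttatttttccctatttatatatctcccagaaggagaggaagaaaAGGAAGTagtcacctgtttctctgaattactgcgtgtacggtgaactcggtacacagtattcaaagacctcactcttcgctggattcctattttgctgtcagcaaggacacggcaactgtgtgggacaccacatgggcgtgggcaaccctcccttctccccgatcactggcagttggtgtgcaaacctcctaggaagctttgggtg
All 4 granule enzyme promoters held AGGAAGT on the gene's own strand within the 250 bases. It began 94 bases before the RefSeq start in Prtn3, 84 in Elane, 223 in Mpo and 206 in Ctsg. The Padi4 and Padi2 promoters held none on either strand, and 7.69% of all 32851 promoters of that length did. The other letters searched, on both strands, were TGTGGT (Runx), TTNNGNAA (C/EBP) and TATAAA. In the order named, these letters were found in 14.0%, 36.8% and 12.4% of all promoters. TGTGGT was found in Ctsg and TTNNGNAA in Padi2. TATAAA was found in Ctsg and in Padi4, there 31 bases before the RefSeq start and inside the gene span given above. A match to these letters is a description of the sequence and does not show that a factor binds.

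Padi4 transcripts sat mainly in neutrophils. Of the 1062 Padi4 UMIs in the 4 gated classes, 774 (72.9%) were in neutrophils, 168 in macrophages, 114 in cancer cells and 6 in monocytes. In neutrophils Padi4 stood at 21.5 CPM in OE-Vector 1 (interval 18.3 to 25.0) and at 13.6, 24.9 and 43.7 in OE-MLKL 1, 2 and 3. The libraries thus spread over a wide range, with OE-MLKL 1 lowest, OE-MLKL 3 highest and OE-Vector 1 between them. Monocytes held 2.62, 0, 2.62 and 8.34 CPM in the same order of libraries, from 3, 0, 1 and 2 UMIs, and macrophages 2.52, 1.06, 1.21 and 4.98. Cancer cells held 0.708, 0.116, 0.237 and 0.831, and T and NK cells, which should lack the gene, 0.438, 0, 0 and 0.850. Near-empty barcodes, whose UMIs come from free RNA, held 2.74, 0.960, 2.04 and 6.69. Such a level is the make-up of free RNA, not the amount that it leaves in a cell. The gate assumed that free RNA makes up 10% of a cell's UMIs. The macrophage level was below that of near-empty barcodes in 3 libraries and close to it in OE-MLKL 1, while the neutrophil level was above it in every library. Macrophages were above T and NK cells in every library. OE-MLKL 3 was the highest library and OE-MLKL 1 the lowest of the 4 in neutrophils, macrophages, cancer cells and near-empty barcodes alike.

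**Figure D1:**
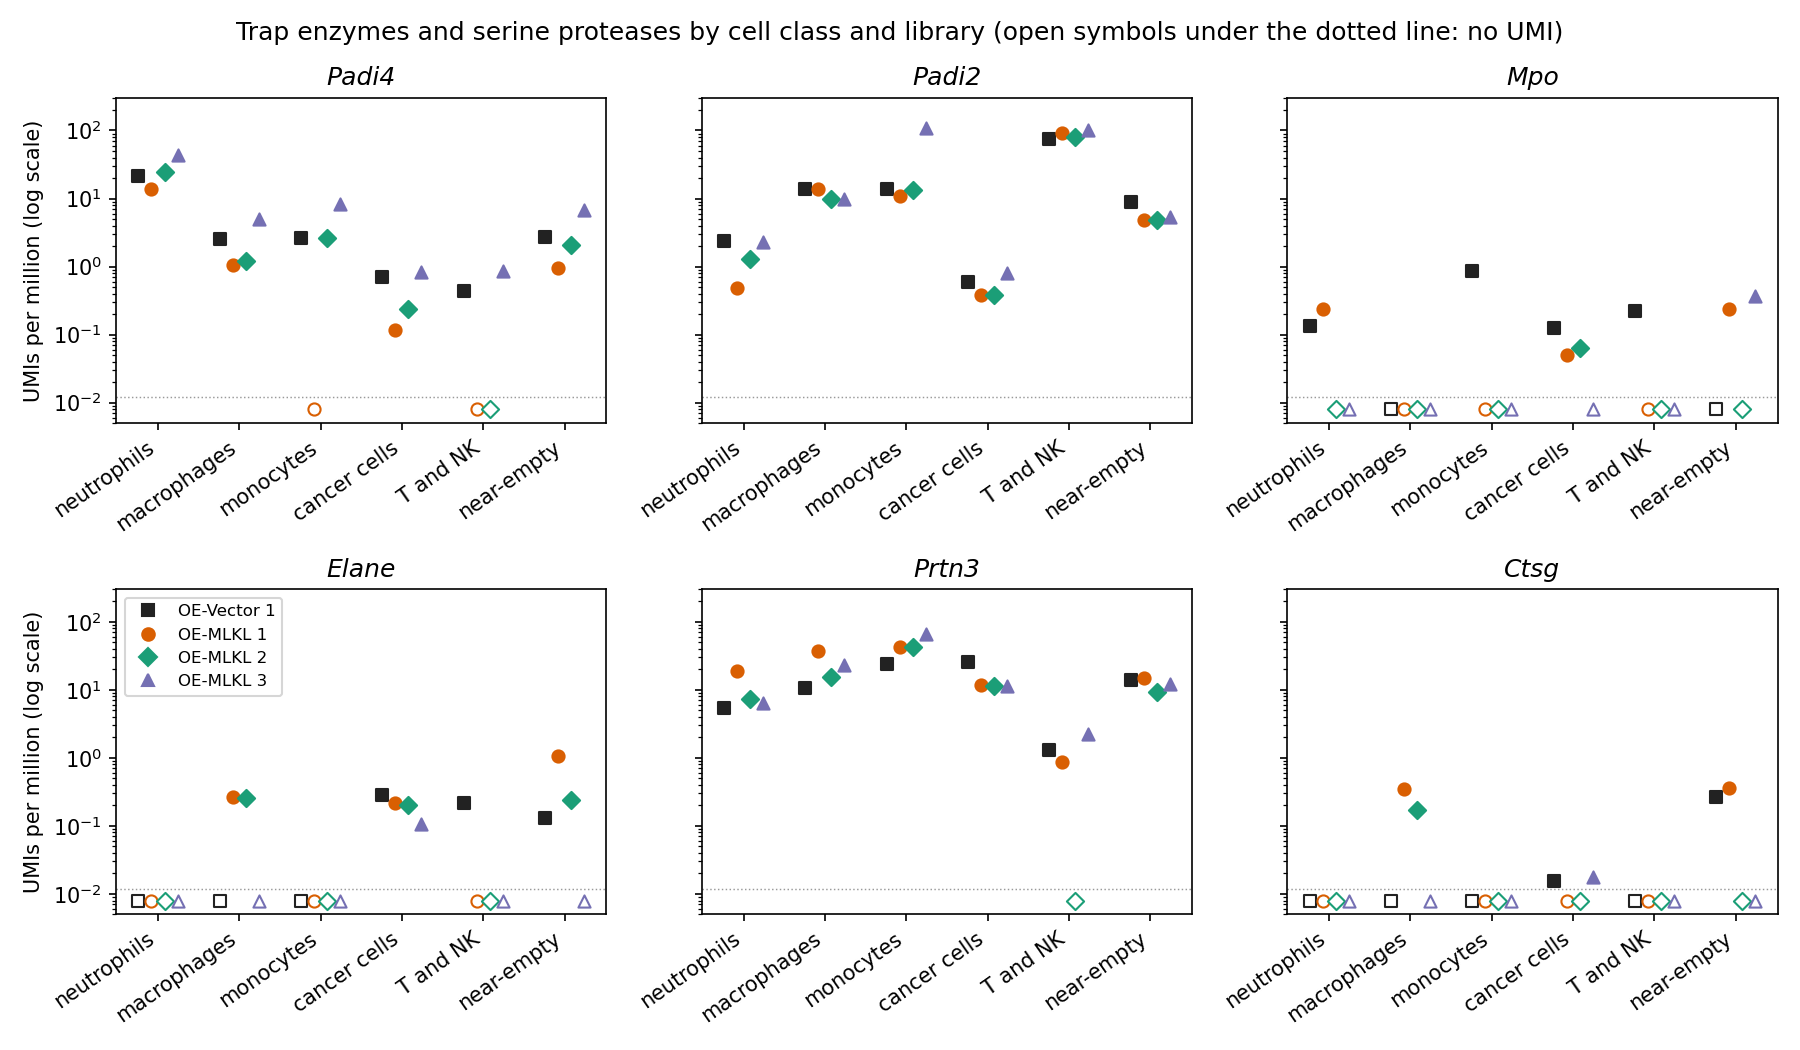
Level of each of the 6 genes (log axis, CPM of the summed class) in 4 gated classes, in T and NK cells and in near-empty barcodes, 1 symbol per library; open symbols under the dotted line mark sums with no UMI. Padi4 is highest in neutrophils, Padi2 in T and NK cells except in OE-MLKL 3, where monocytes are higher, Prtn3 spreads over all 4 classes, and Mpo, Elane and Ctsg stay near or at 0.

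Few neutrophils carried a Padi4 UMI at this depth: 2.44%, 1.07%, 1.96% and 5.61% in OE-Vector 1 and OE-MLKL 1, 2 and 3, and 0.999%, 0.626%, 1.21% and 1.95% after thinning. In T and NK cells the thinned share was at most 0.0512%, and in macrophages it was 0.149%, 0.0426%, 0.0768% and 0.233%. With the libraries as blocks, Padi4 was higher in neutrophils than in macrophages by 3.67 ± 0.24 (log2, SE; adjusted p = 2.82e-09, edgeR quasi-likelihood test). It was also higher than in monocytes, by 3.44 ± 0.48 (edgeR adjusted p = 3.14e-05), and than in cancer cells, by 6.29 ± 0.26 (edgeR adjusted p = 2.80e-12). The background of these contrasts is broad. Of the 13592 genes tested, 70.6% were called between neutrophils and macrophages (34.5% higher in neutrophils, 36.2% lower), 40.8% between neutrophils and monocytes (20.9% higher, 19.9% lower) and 81.4% between neutrophils and cancer cells (37.5% higher, 43.9% lower). Padi4 was higher in neutrophils in all 4 libraries in each contrast. It was also higher in macrophages than in cancer cells, by 2.62 ± 0.27 (edgeR adjusted p = 2.07e-07), where 68.5% of genes were called, 33.5% higher and 35.1% lower in macrophages.

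Neutrophils with a Padi4 UMI differed from the other neutrophils in several genes. Cells with a Padi4 UMI (150, 55, 151 and 355 per library) were set beside cells of the same library without one, matched on depth; the genes named were chosen after their values were seen, and no test was made. Retnlg, a resistin-like neutrophil product and itself a gate marker, was higher in the Padi4 cells in 4 of 4 libraries, at 4357, 18173, 13918 and 16346 CPM against 1671, 10734, 5749 and 8232. Mmp8, the collagenase of later granules, was higher by a mean of 0.76 ± 0.24 (log2, SD, n = 4 libraries), Ifitm6 by 1.03 ± 0.16 and Anxa1 by 0.81 ± 0.31. The stefin Stfa3 was higher by 1.68 ± 0.19. The chemokines Ccl3 and Ccl4 were lower in 4 of 4 libraries, by means of -1.36 ± 0.63 and -1.74 ± 0.91. Ltf, the iron-binding protein of the specific granules, was lower as well, by a mean of -1.45 ± 0.95. The summed level of the 8 neutrophil gate markers was higher in the Padi4 cells of every library; its part in these differences was not tested.

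Padi2 had another distribution. Its level in neutrophils was 2.37, 0.478, 1.28 and 2.30 CPM, from 49 UMIs in all, each in a different cell. Macrophages held 13.9, 14.0, 9.81 and 9.96 CPM, a narrow range in which the OE-Vector and OE-MLKL libraries overlapped. T and NK cells held more than any of the 4 classes in OE-Vector 1 and OE-MLKL 1 and 2, with 75.7, 92.1, 81.1 and 101.1 CPM over the 4 libraries and a UMI in 26.6%, 30.3%, 23.7% and 31.5% of cells. The 38 mast and basophil cells of OE-Vector 1 reached 190.7 CPM, with a UMI in 19 cells. Cancer cells held 0.598, 0.381, 0.379 and 0.796, below the 8.88, 4.802, 4.806 and 5.39 of near-empty barcodes. Monocytes held 14.0, 10.7, 13.1 and 108.4, and 15 of the 26 UMIs behind the last value came from a single cell.

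Padi2 was lower in neutrophils than in macrophages by -2.73 ± 0.45 (log2, SE; adjusted p = 5.22e-05, edgeR) and lower than in monocytes by -3.77 ± 0.59 (edgeR adjusted p = 9.10e-05). Without OE-MLKL 3, whose monocyte UMIs came mostly from 1 cell, the latter was -2.82 (edgeR adjusted p = 5.65e-04). It was higher in neutrophils than in cancer cells by 2.07 ± 0.52 (edgeR adjusted p = 0.00162), at levels that in neutrophils lay below those of near-empty barcodes. In macrophages it exceeded cancer cells by 4.81 ± 0.40 (edgeR adjusted p = 1.66e-08). The deiminases thus differed in class: Padi4 was higher in neutrophils than in macrophages and Padi2 lower, in 4 of 4 libraries each.

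Prtn3 was the most abundant of the 4 granule enzymes and was found mostly outside neutrophils. Of its 5239 UMIs in the gated classes, 3707 (70.8%) were in cancer cells, 1236 (23.6%) in macrophages, 225 in neutrophils and 71 in monocytes. Cancer cells also held the most UMIs of all genes, 56527410 to 63525588 a library. Macrophages held 11304604 to 20280236 and neutrophils 4185431 to 9133525. The shares of Prtn3 UMIs thus depend on class depth, and the levels below are scaled to it. Cancer cells held 25.5, 11.8, 11.5 and 11.4 CPM in OE-Vector 1 and OE-MLKL 1, 2 and 3 (intervals 24.3 to 26.8, 11.0 to 12.7, 10.7 to 12.4 and 10.5 to 12.3). The 3 OE-MLKL libraries were nearly alike, and OE-Vector 1 stood above all of them. Macrophages held 10.6, 36.7, 15.3 and 23.2, with OE-Vector 1 lowest. Monocytes held 23.6, 42.9, 42.0 and 66.7, from 12 to 27 UMIs a library, and neutrophils 5.40, 19.1, 7.38 and 6.35. T and NK cells held 1.31, 0.877, 0 and 2.27, and near-empty barcodes 13.7, 14.8, 9.37 and 12.1. Monocytes were above near-empty barcodes in all 4 libraries, neutrophils in OE-MLKL 1 alone, macrophages in the 3 OE-MLKL libraries, and cancer cells in OE-Vector 1 and OE-MLKL 2. All 4 classes were above T and NK cells in every library. Gated fibroblasts, up to 75.9% of which had a given cancer cell marker on, held 19.1, 10.9, 14.0 and 10.1.

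Of the 2488 cancer cells with Prtn3, 1825 had only 1 UMI, but OE-Vector 1 had a long tail. Cells with 3 or more Prtn3 UMIs made up 7.79% of its cancer cells against 0.523%, 0.421% and 1.58% in OE-MLKL 1, 2 and 3. Its median cancer cell held 25959 UMIs, against 13132, 12262 and 21093 in the others. The highest cell held 24 UMIs in OE-Vector 1 and 6, 8 and 6 in the others. After thinning, 1.39% of OE-Vector 1 cancer cells and 0.639%, 0.659% and 0.626% of OE-MLKL cancer cells had a UMI, compared with 38.9%, 14.5%, 13.4% and 19.1% before thinning. Over the classes, Prtn3 was lower in neutrophils than in macrophages by -1.08 ± 0.38 (log2, SE; adjusted p = 0.0187, edgeR) and lower than in monocytes by -1.94 ± 0.54 (edgeR adjusted p = 0.00836). The first of these calls was lost without OE-MLKL 2 or OE-MLKL 3 (edgeR adjusted p = 0.0570 and 0.124), and so was the second (edgeR adjusted p = 0.0530 and 0.0541). Against cancer cells the difference of neutrophils, -0.44 ± 0.38, and that of macrophages, 0.65 ± 0.35, did not pass the test (edgeR adjusted p = 0.301 and 0.113). Without OE-Vector 1 macrophages were higher than cancer cells by 1.31 (edgeR adjusted p = 2.75e-04).

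Cancer cells with 2 or more Prtn3 UMIs (353, 99, 100 and 111) were set beside depth-matched cancer cells with none, again as a description of genes chosen after their values were seen. Plppr3, the gene that overlaps the start of Prtn3 on the other strand, was higher in 4 of 4 libraries, at 50.8, 43.0, 59.4 and 92.1 CPM against 21.0, 16.7, 21.6 and 30.4. The iron-binding and acute-phase genes Trf, Lcn2 and Lbp were higher by means of 1.08 ± 0.06, 1.23 ± 0.22 and 0.93 ± 0.18 (log2, SD, n = 4 libraries). Msln (mesothelin) and the keratin Krt19 were lower by means of -1.12 ± 0.34 and -0.93 ± 0.39. The summed level of the neutrophil gate markers was 241.4 against 242.3, 143.1 against 154.5, 290.3 against 280.4 and 577.5 against 547.4 CPM, higher in 2 of 4 libraries. The summed monocyte gate markers were higher in the Prtn3 cells in 4 of 4 libraries, at 929.4 against 567.0, 390.3 against 328.9, 287.8 against 209.0 and 492.7 against 369.9 CPM. A monocyte gate marker was on in up to 88.6% of all gated cancer cells, so this sum is not particular to monocytes. The part of the gate markers in these differences was not tested.

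Prtn3 in macrophages was concentrated in few cells. Cells with 3 or more UMIs numbered 19, 38, 19 and 61, which is 1.02%, 1.51%, 0.833% and 2.16% of macrophages, and they held 65.9%, 51.3%, 48.3% and 71.9% of the macrophage Prtn3 UMIs. No neutrophil held more than 2. The median depth of these cells was 8278, 5125, 4153 and 8337 UMIs, against 8457, 4055, 4724 and 6910 in macrophages with none. Padi4 was found more often in these cells, although 52 of the 112 macrophages with Padi4 had no Prtn3 UMI. Of macrophages with 3 or more Prtn3 UMIs, 9 of 19, 2 of 38, 1 of 19 and 23 of 61 had a Padi4 UMI. Of those with no Prtn3 UMI, 12 of 1789, 6 of 2306, 8 of 2184 and 26 of 2655 had one. The shares were 47.4% against 0.671% in OE-Vector 1, 5.26% against 0.260% in OE-MLKL 1, 5.26% against 0.366% in OE-MLKL 2 and 37.7% against 0.979% in OE-MLKL 3. All 4 libraries showed the direction, but in OE-MLKL 1 and 2 it rested on 2 cells and 1 cell. Near-empty barcodes also held the most Padi4 in OE-Vector 1 and OE-MLKL 3 (2.74 and 6.69 CPM), and the part of free RNA was not tested.

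**Figure D2:**
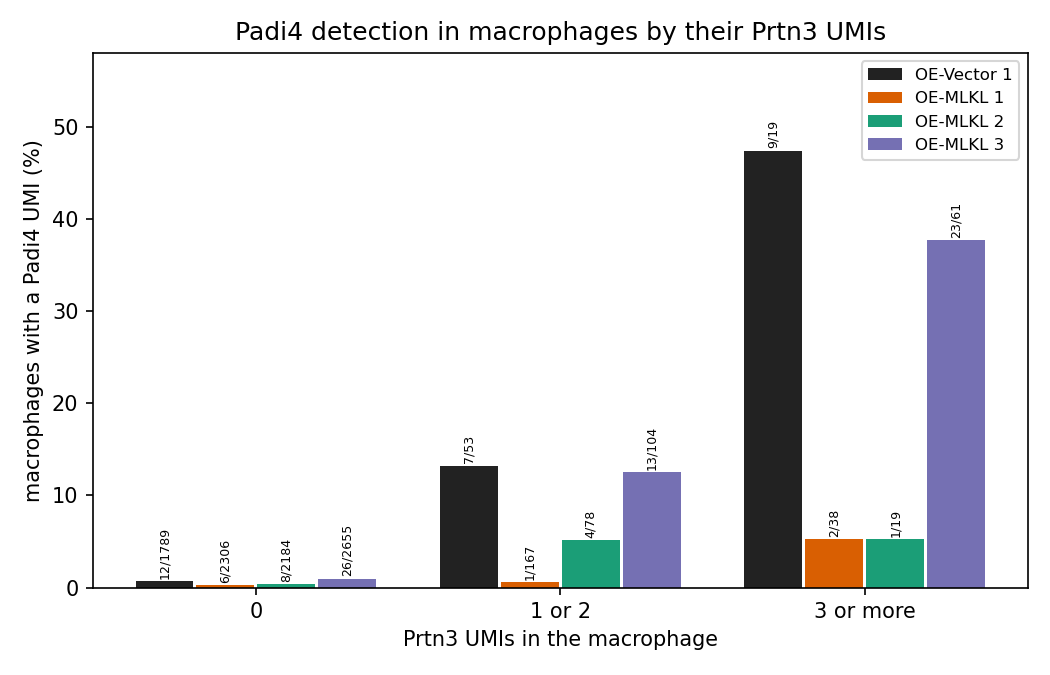
Share of gated macrophages with a Padi4 UMI (percent, bars from 0) by the number of Prtn3 UMIs in the same cell, 1 bar per library, with cells with Padi4 over all cells of the bin printed above each bar. The share is highest at 3 or more Prtn3 UMIs in every library, at 47.4% in OE-Vector 1 and 37.7% in OE-MLKL 3 but 5.26% in both of the others.

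These macrophages also had a profile of their own, again given without a test since the cells were chosen by Prtn3 and the genes after their values were seen. Levels are compared with depth-matched macrophages of the same library without Prtn3, as log2 differences of CPM plus 5. Saa3, an acute-phase amyloid protein, stood at 11971, 6588, 12452 and 20996 CPM against 547.4, 368.7, 684.9 and 140.1. Slpi, a secreted inhibitor of elastase and cathepsin G, stood at 1512, 276.3, 736.4 and 435.4 against 37.2, 21.7, 33.1 and 17.0, a mean difference of 4.29 ± 0.72 (SD, n = 4 libraries). Prg4 (lubricin) was higher by a mean of 5.27 ± 1.77, Lrg1 by 3.90 ± 0.90, Chil3 by 3.79 ± 1.42, coagulation factor F10 by 3.16 ± 0.68 and fibronectin (Fn1) by 2.81 ± 0.60. The adhesion genes Selp and Icam2 were higher in 4 of 4 libraries, by means of 2.66 ± 1.16 and 2.23 ± 0.91. Gata6, a transcription factor, was higher in 3 of 4 libraries, at 61.7, 14.0 and 53.5 CPM in OE-Vector 1 and OE-MLKL 1 and 3, and had no UMI in these cells in OE-MLKL 2.

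Other macrophage genes were lower in the cells with 3 or more Prtn3 UMIs. Fcrls had no UMI in these cells in 3 libraries and 11.5 CPM in OE-MLKL 3, against 533.4, 39.3, 171.1 and 300.1 in the matched cells. The chemokine Ccl8, the receptor Cx3cr1 and the gate marker Ms4a7 were lower in 4 of 4 libraries, by means of -4.44, -3.96 and -3.05. Mmp12, the macrophage elastase, was lower in 4 of 4 libraries, at 6.17, 23.4, 33.99 and 5.73 CPM against 491.1, 38.7, 60.4 and 48.7. The values in the Prtn3 cells rest on few UMIs in every library. Among cells with 1 or more Prtn3 UMIs Mmp12 was lower in 2 of 4 only. Padi2 was lower too, with 3 UMIs in all 137 cells. The complement gene C1qa was lower in 4 of 4 libraries, at 3320, 2496, 3014 and 3071 against 4990, 3895, 5136 and 4818. The summed macrophage gate markers were lower as well, at 9601, 9323, 10911 and 9866 against 15168, 13467, 15931 and 14967. The summed neutrophil gate markers stood at 462.8, 515.1, 634.5 and 909.0 against 459.0, 339.7, 540.5 and 726.6 CPM, and the neutrophil receptor Cxcr2 had 6 UMIs in the 137 cells. Their part in the Padi4 result was not tested.

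**Figure D3:**
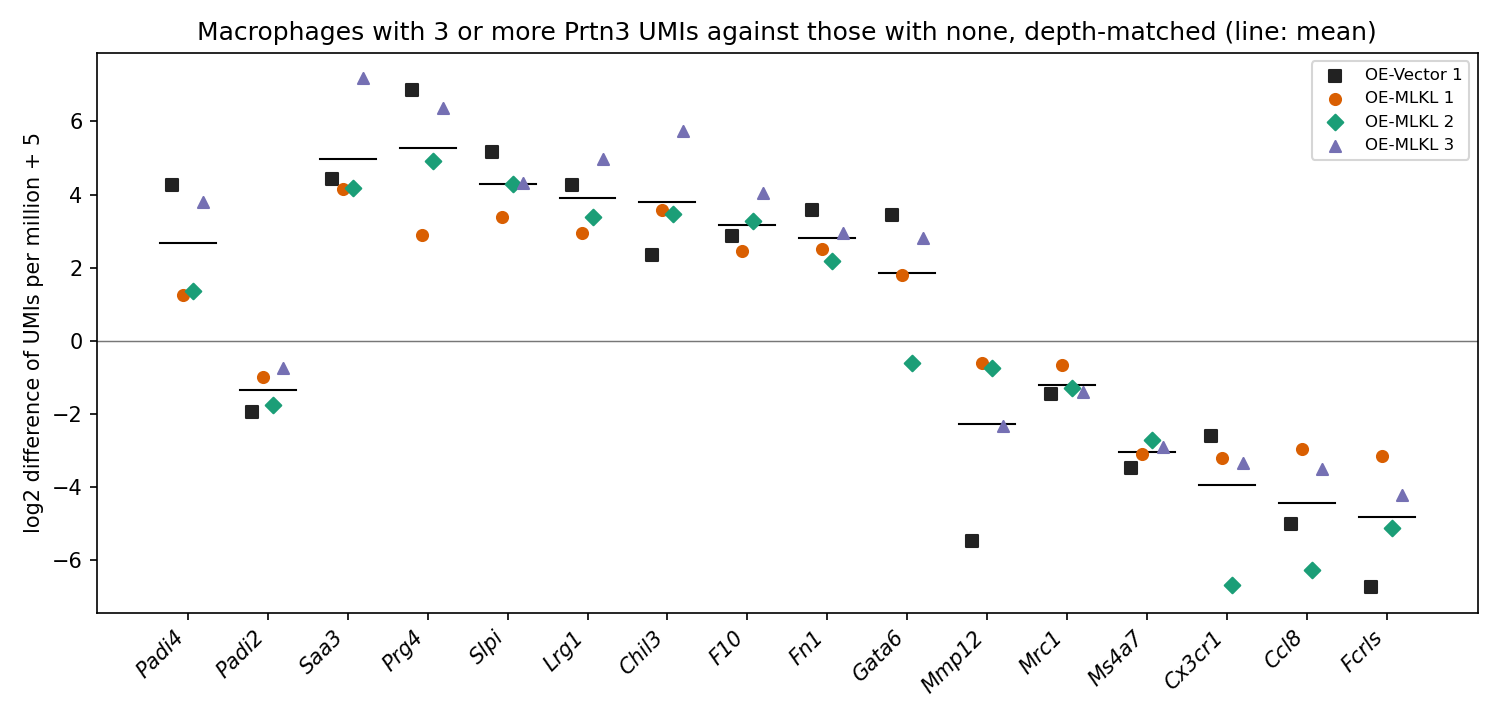
Difference in level (log2 of CPM plus 5) between gated macrophages with 3 or more Prtn3 UMIs and depth-matched macrophages with none, for 16 genes, 1 symbol per library and a line at the mean. Padi4, Saa3, Prg4, Slpi, Lrg1, Chil3, F10 and Fn1 lie above 0 in all 4 libraries, Gata6 in 3, and Padi2, Mmp12, Mrc1, Ms4a7, Cx3cr1, Ccl8 and Fcrls lie below 0 in all 4.

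The split was also made on Padi4, which shares cells with the split on Prtn3. In macrophages with a Padi4 UMI (28, 9, 13 and 62), Prtn3 stood at 267.2, 265.4, 252.6 and 293.4 CPM against 7.08, 34.98, 16.1 and 16.3 in depth-matched cells without, and Saa3 and Lrg1 were higher in 4 of 4 libraries, by means of 3.70 ± 0.75 and 3.47 ± 0.64 (log2, SD, n = 4 libraries). The summed neutrophil gate markers were 512.6, 619.2, 915.6 and 861.4 against 470.0, 340.1, 542.2 and 723.7 CPM, higher in 4 of 4 libraries, and their part was not tested. In macrophages with a Padi2 UMI (209, 152, 105 and 188) Prtn3 was lower, at 2.29, 21.8, 1.75 and 12.4 against 10.1, 39.3, 15.7 and 25.3, and Saa3 was lower by a mean of -2.66 ± 0.71. Padi4 and Padi2 were thus detected in macrophages that differed in Prtn3 and Saa3 in opposite directions in 4 of 4 libraries.

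Mpo, Elane and Ctsg were close to absent from every class. The gated cells held 18 Mpo, 56 Elane and 8 Ctsg UMIs in all, none with more than 2 in a cell. Gated neutrophils held 2 Mpo UMIs in 25334 cells and no Elane or Ctsg UMI. Taking 3 counts as the limit that a count of 0 allows, up to 0.0389 to 0.0582% of neutrophils by library could hold a UMI, which at this depth does not limit the share that express the gene. Macrophages held no Mpo UMI, 6 of Elane and 6 of Ctsg. Of the 56 Elane UMIs, 50 were in cancer cells (18, 13, 13 and 6 by library), at 0.283, 0.215, 0.205 and 0.106 CPM, against 0.131, 1.08, 0.240 and 0 in near-empty barcodes. Prtn3 lies just before Elane, and a Prtn3 UMI was found in 12 of 17, 4 of 13, 5 of 13 and 0 of 6 cancer cells with Elane by library. In cancer cells without Elane the shares were 38.7%, 14.5%, 13.3% and 19.1%, so the share was higher with Elane in 3 libraries and lower in OE-MLKL 3. The OE-Vector 1 cells with Elane were also deeper, with a median of 32542 UMIs against 25916.

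An exception stood outside the gated classes. Over all 74545 cells before doublet removal, 160 had a UMI of Mpo, Elane or Ctsg, and only 2 had more than 1 of these 3 genes, both in OE-MLKL 1 and both scored as doublets. The first, which passed no gate, held 57 Mpo, 104 Elane, 67 Prtn3 and 117 Ctsg UMIs among 26359, together with 25 UMIs of the promyelocyte gene Ms4a3, 315 of S100a8 and none of Padi4. The second, in the neutrophil gate, held 4 Elane, 9 Prtn3 and 1 Ctsg UMI among 5819, with 294 UMIs of Camp and 101 of Ngp, genes of later granules. In the other cells the highest count of Mpo, Elane or Ctsg was 3. Of the 5415 cells with Prtn3, 39 had Elane and 5369 had none of the other 3 granule enzymes. All but 160 of the 74545 cells lacked those 3 as well.

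The question of the design, OE-MLKL against OE-Vector, was tested in each class on summed counts. No member passed an adjusted p of 0.05 in any class (edgeR quasi-likelihood test, Benjamini-Hochberg over all genes). Prtn3 in cancer cells alone was under 0.05 before adjustment, and DESeq2 called none of the members for which it gave an adjusted p. In neutrophils 0 of 12719 genes were called (0%), with 1020 at an unadjusted p under 0.05 and 80 called by DESeq2. In macrophages 5 of 13524 (0.037%, all lower in OE-MLKL), in monocytes 57 of 6127 (0.93%; 0.18% higher, 0.751% lower) and in cancer cells 0 of 16342 (0%; 844 unadjusted, 104 by DESeq2) were called. Of the 6 members 3 could be tested in neutrophils and macrophages, 2 in monocytes and 4 in cancer cells, since the others had too few UMIs.

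The Prtn3 estimates had opposite signs in cancer cells and in the immune classes, with no class past the test. In cancer cells the estimate was -1.25 ± 0.27 (log2, SE; edgeR adjusted p = 0.798), with all 3 OE-MLKL libraries below OE-Vector 1. The estimate ran from -1.31 to -1.14 over its 11 alternatives, and was -1.15 without OE-MLKL 3. In macrophages it was 1.16 ± 0.53 (edgeR adjusted p = 0.858), in monocytes 0.99 ± 0.54 (edgeR adjusted p = 0.870) and in neutrophils 0.79 ± 0.74 (edgeR adjusted p = 0.811), with all 3 OE-MLKL libraries above OE-Vector 1 in each. How many of all genes order the libraries this way was not counted. Without OE-MLKL 1 the neutrophil estimate was 0.10 and the macrophage estimate 0.72. A fit over the 4 classes, added after these values were seen, put the OE-MLKL effect in macrophages above that in cancer cells by 2.27 ± 0.49 (log2, SE), which did not pass over 13592 genes (edgeR adjusted p = 0.270; 5.78e-07 to 0.771 over its alternatives). Without OE-MLKL 3 it was 2.29, and for neutrophils 2.11. The same difference was 1.83 ± 0.56 for neutrophils and 2.08 ± 0.65 for monocytes (edgeR adjusted p = 0.274 and 0.463). With all 4 libraries and the low-count filter, 0.00736%, 0.0589% (0.00736% higher, 0.0515% lower) and 0.0147% of genes were called for macrophages, neutrophils and monocytes. With all 4 libraries, Prtn3 is thus not shown to differ between groups in any class.

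**Figure D4:**
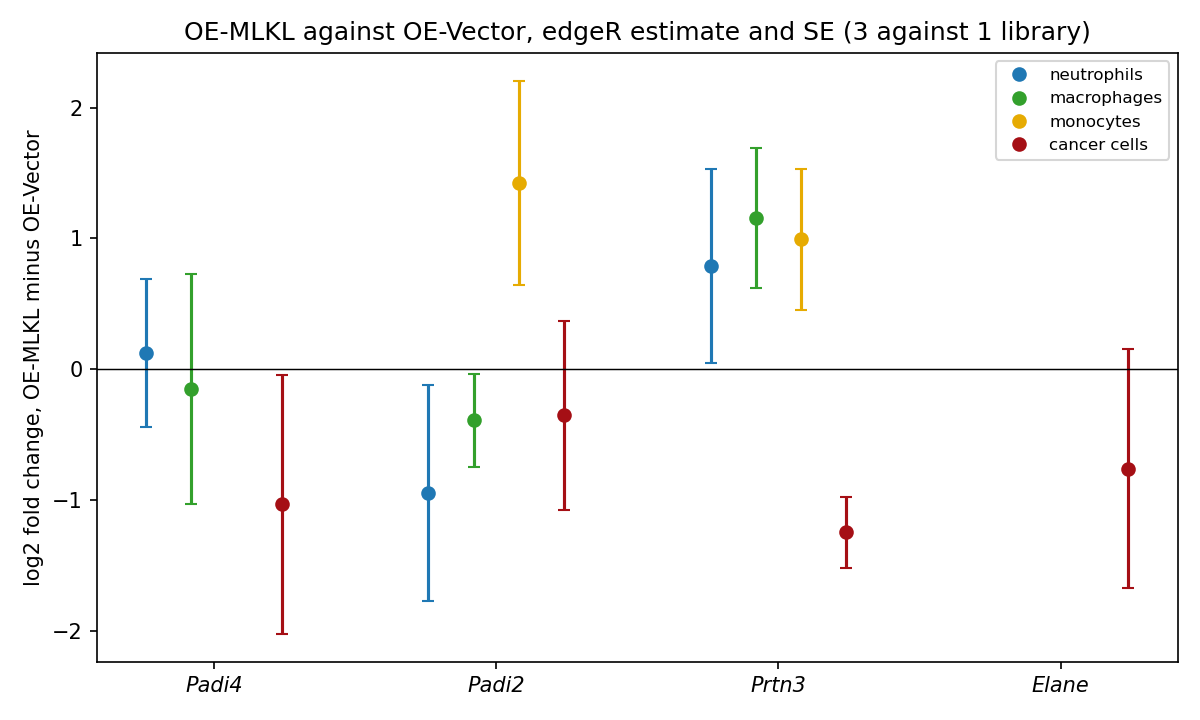
Difference between OE-MLKL and OE-Vector (log2 fold change, edgeR estimate with its SE, 3 libraries against 1) for the members that could be tested in each class. Prtn3 lies at -1.25 in cancer cells and between 0.79 and 1.16 in the other 3 classes, and no value passed the adjusted test.

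Padi4 did not differ between groups beyond the spread of the OE-MLKL libraries: the estimate was 0.13 ± 0.57 in neutrophils (edgeR adjusted p = 0.968) and -0.15 ± 0.88 in macrophages (edgeR adjusted p = 0.990), with OE-Vector 1 inside the OE-MLKL range in both. Without OE-MLKL 3 the neutrophil estimate turned to -0.34, and without OE-MLKL 1 the macrophage estimate turned to 0.17. In cancer cells it was -1.04 ± 0.99 (edgeR adjusted p = 0.999), at -2.01 without OE-MLKL 3 and -0.63 without OE-MLKL 1. Padi2 was at -0.39 ± 0.36 in macrophages, -0.95 ± 0.82 in neutrophils and -0.35 ± 0.73 in cancer cells (edgeR adjusted p = 0.916, 0.796 and 0.999), and at 1.43 ± 0.78 in monocytes (edgeR adjusted p = 0.873), where 1 cell of OE-MLKL 3 held most of that library's UMIs. Elane in cancer cells was at -0.76 ± 0.91 (edgeR adjusted p = 0.999).

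Genes around the members were followed as lists. Of the 3 other PADI genes, Padi3 could be tested in macrophages alone, with 7, 13, 16 and 7 UMIs there, and did not pass (edgeR adjusted p = 0.925), while Padi1 and Padi6 had at most 6 UMIs in any sum. Of the 10 azurophil and progenitor genes, 7 could be tested in neutrophils, 5 in macrophages, 4 in monocytes and 6 in cancer cells, and none passed in either direction; their median log2 fold changes were -0.26, -0.67, -0.50 and -0.47, against 0.04, 0.05, 0.06 and 0.02 over all genes tested. Prss57, another azurophil protease, had 5 UMIs in OE-Vector 1 neutrophils and 28, 26 and 26 in those of OE-MLKL (2.53 ± 0.84, edgeR adjusted p = 0.594). The promyelocyte gene Ms4a3 had at most 5 UMIs in any sum.

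Of the 6 later granule genes, 6 were tested in neutrophils, macrophages and cancer cells and 3 in monocytes, and none passed. Their medians were 1.61 in neutrophils but -2.05 in macrophages, -0.90 in monocytes and -0.11 in cancer cells. Ngp ranged widely among the OE-MLKL neutrophils, at 689.8, 147.8 and 26.4 CPM against 3.43 in OE-Vector 1 (edgeR adjusted p = 0.594), and Mmp8 stood at 969.3, 760.2 and 527.1 against 162.0 (edgeR adjusted p = 0.582). Both were higher in 3 of 3 libraries, while Mmp9 was lower in 3 of 3, at 540.2, 626.2 and 1052 against 1564 (edgeR adjusted p = 0.594). Between classes, 5 of the 6 were tested and all 5 were called higher in neutrophils than in macrophages, in monocytes and in cancer cells, with median differences of 6.07, 4.67 and 7.70 (log2). Of all genes tested, 34.5%, 20.9% and 37.5% were called higher in neutrophils in these contrasts.

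Of 6 protease inhibitors, 2 could be tested in monocytes and 4 in each other class. Slpi, at 293.9 CPM in OE-Vector 1 monocytes and 53.6, 36.7 and 58.4 in those of OE-MLKL, was called lower, as were 0.751% of all genes tested there (-2.65 ± 0.44, edgeR adjusted p = 1.74e-04); the OE-MLKL sums held 14 or 15 UMIs each. The value rests on 1 OE-Vector library. No other tested inhibitor passed, and neither did Slpi outside monocytes. Among 8 genes of trap release and oxidant production, Mmp12 was called lower in OE-MLKL macrophages, as were 0.037% of all genes tested there. It stood at 35.1, 58.6 and 42.9 CPM against 514.7 in OE-Vector 1 (-3.60 ± 0.32, edgeR adjusted p = 0.0329). No other gene of that list was called in any class. The Mmp12 estimate was -3.55 ± 0.68 in neutrophils, -3.22 ± 0.64 in cancer cells and -0.87 ± 0.54 in monocytes (edgeR adjusted p = 0.582, 0.731 and 0.958), and all of these rest on the same OE-Vector 1 library. The NADPH oxidase subunits Cybb and Ncf1, whose product feeds MPO, were at 0.33 ± 0.34 and 0.36 ± 0.36 in macrophages (edgeR adjusted p = 0.925 and 0.922). Of the 5 nuclear and DNA clearance genes, 3 were tested in neutrophils and macrophages, 2 in monocytes and 4 in cancer cells, and none passed.

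Over the 16 sums of 4 classes and 4 libraries, the genes whose level (log2 of CPM plus 1) was most like that of Padi4 were Slc2a3, Spata13, Satb1, Preb and Dhrs9 (Pearson r up to 0.967). For Padi2 they were Zdhhc23, Gm5547, Kynu, Grk3 and Rtl5 (r up to 0.963), and for Prtn3 Vopp1, AI987944, B230307C23Rik, Nrg2 and Limd1 (r up to 0.858). The 16 points share libraries and classes, so these values describe the sums only. Mpo, Elane and Ctsg had fewer than 100 UMIs in the gated cells and were not ranked.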

How the data were processed

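Per the labels, tumours from C57BL/6 mice were profiled by 10x Genomics single-cell RNA-seq. The deposited unit is counts: UMI counts per gene and barcode, unfiltered, which the authors made with Cell Ranger on mm10. The matrix headers name version 7.1.0 and the submitters' notes 2.1.1. Cells had at least 500 UMIs, more than 200 genes, under 10% mitochondrial and at most 5% haemoglobin UMIs, and cells scored as doublets by similarity to simulated pairs were removed (12.3 to 18.4%). A cell joined a class with 3 or more of its markers above free RNA, no tie, and fewer than 3 of an unrelated class. UMIs were summed by class and library, filtered with filterByExpr and tested with edgeR 4.0.16 (TMM, quasi-likelihood, Benjamini-Hochberg, two-sided), checked on simulated counts. Class contrasts had the library as a block. Thinned shares are hypergeometric expectations at 500 UMIs; intervals are exact Poisson or binomial. Split cells were matched in 5 depth bins. The genes named are the 6 members, fixed lists, the 5 most alike per member and, for cells split by a member's UMIs, genes chosen after their values were seen. The members and lists were chosen with earlier results of these data known. Replicates are libraries, and p-values of the class contrasts measure their spread. Between groups the spread comes from the 3 OE-MLKL libraries alone, since 1 OE-Vector library shows none. Alternatives were DESeq2 1.42.0, other scalings, filters, gates and left-out libraries.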

Additional observations from a re-analysis of the deposited data

Results flagged for a closer look

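The Prtn3 estimates had opposite signs in cancer cells and in the immune classes, but no class passed the test with all 4 libraries. The log2 difference between OE-MLKL and OE-Vector was -1.25 in cancer cells, lower in 3 of 3 OE-MLKL libraries. It was 1.16 in macrophages, 0.99 in monocytes and 0.79 in neutrophils, higher in 3 of 3 libraries each. Prtn3 was flagged for this ordering, and how many of all genes order the libraries so was not counted. Of all genes tested, 52.2% had an estimate above 0 in cancer cells, 54.2% in macrophages, 54.5% in monocytes and 52.9% in neutrophils. Neutrophil Prtn3 was above near-empty barcodes in OE-MLKL 1 alone, and above T and NK cells in every library. The neutrophil estimate was 0.10 without OE-MLKL 1. The difference between macrophages and cancer cells, 2.27, came from a fit added after these signs were seen. It had an edgeR adjusted p of 0.270. With no low-count filter it was 2.26 and passed, and the share of all genes called there is not given. With 1 OE-Vector library, the group and that library cannot be told apart.

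A signal of all 4 granule enzymes appeared in 1 cell that enters no comparison, since it was scored as a doublet and passed no gate: 57 Mpo, 104 Elane, 67 Prtn3 and 117 Ctsg UMIs, in OE-MLKL 1. No cell of OE-Vector 1, OE-MLKL 2 or OE-MLKL 3 held more than 1 of the genes Mpo, Elane and Ctsg.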

How the results depend on the processing

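No paired analysis was possible because no label used here ties a replicate number to a shared animal, batch or day, and the libraries of OE-MLKL and OE-Vector have only the number 1 in common. For the class contrasts, which had the library as a block, the fit without the replicate block called 7496, 4291, 9760 and 7174 genes in place of 9600, 5545, 11063 and 9314, gave Padi4 3.54, 3.32, 6.19 and 2.65, Padi2 -2.64, -3.91, 2.09 and 4.73 and Prtn3 -1.06, -1.89, -0.31 and 0.76 (neutrophils against macrophages, monocytes and cancer cells, then macrophages against cancer cells), and changed no member's call.

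The number of genes called between OE-MLKL and OE-Vector depended on the settings, and the cause was not tested. In neutrophils it was 0, 80 with DESeq2, 33 with no low-count filter and 4 to 1165 with 1 OE-MLKL library left out. In macrophages it was 5, 72 with DESeq2, 18 with no filter, 3 with doublets kept and 3 to 161 with 1 library left out. In monocytes it was 57, 18 with DESeq2, 120 with no filter, 19 at a mean of at least 20 UMIs, 17 with doublets kept and 39 to 250 with 1 library left out. In cancer cells it was 0, 104 with DESeq2, 2 with the stricter gate and 10 to 623 with 1 library left out. The highest counts came without OE-MLKL 3, except in macrophages, where they came without OE-MLKL 1.

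The Padi4 difference in neutrophils turned to -0.18 with doublets kept and ran from -0.34 (without OE-MLKL 3) to 0.43 with 1 library left out. In macrophages it ran from -1.20 (without OE-MLKL 3) to 0.17, at 0.13 without OE-MLKL 2. Prtn3 in neutrophils against cancer cells ran from -0.90 (without OE-MLKL 1, edgeR adjusted p = 0.0446) to 0.17 (without OE-Vector 1). In the class contrasts Padi4 and Padi2 kept direction and side of the threshold in 52 of 52 refits each and Prtn3 in 45 of 52. In the group comparisons 116 of 121 refits of members did. With no filter the Prtn3 difference between macrophages and cancer cells was 2.26, and those of neutrophils and monocytes were 1.89 and 2.09. All of them passed there, in a fit added after the values were seen. The share of all genes called in that refit is not given. Depth limits zeros: 3 counts correspond to 2.62 to 12.5 CPM in monocytes and at most 0.717 in neutrophils.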
